A study of Mus musculus with 15 samples.

Results

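The cells described here were the cells with high Tnnt2 from Isl1Cre hearts at stage E8.25 (E for embryonic day) in a mouse single-cell RNA series. They were chosen by measured values: a cell was a member when at least 1000 genes were detected and Tnnt2, which encodes cardiac troponin T, reached 2000 CPM, a count scaled to a fixed total for each cell. That rule took 119 of the 188 Isl1Cre E8.25 cells with 1000 genes, 61 in replicate 1 and 58 in replicate 2, out of 192 Isl1Cre E8.25 cells and 1400 cells in the whole series. The same gate took 127 of 143 cells at Isl1Cre E8.75 and 157 of 187 cells at Nkx2-5Cre E8.25, and these 2 groups are what the members were set against. The question was which genes still differed once Tnnt2 had been held above a common threshold.

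All cells came from hearts of mice that carried a Cre allele together with Rosa26tdTomato, a reporter that Cre switches on for good in a cell and its descendants. Isl1Cre makes Cre where Isl1 is active, which includes second heart field progenitors, and Nkx2-5Cre makes it where Nkx2-5 is active, which includes early cardiac progenitors of the heart tube. The groups compared were Isl1Cre E8.25, Isl1Cre E8.75 and Nkx2-5Cre E8.25. Nkx2-5Cre E8.75 served to ask whether a stage difference was the same in both lineages. It also entered the main fit of every comparison, as did the E9.25 libraries of both lineages, and all groups shared a common estimate of spread. Each of the E8.25 and E8.75 groups had 2 libraries whose titles carry the same embryo number, so both probably came from 1 embryo. A p-value here rests on how far 2 libraries of a group lie apart, pooled over the groups fitted. Libraries of a group may lie apart for technical reasons only, and a group difference cannot be told apart from a difference between single embryos.

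Cardiomyocytes of the early heart contract with sarcomeres, in which myosin thick filaments pull on actin thin filaments and the troponin complex on the thin filament makes the pull depend on calcium. The first cells to differentiate build the linear heart tube, and second heart field cells join its poles later and switch on the same contractile genes afterwards. As a cardiomyocyte matures it changes troponin and myosin isoforms, builds a sarcoplasmic reticulum that stores and releases calcium, and raises oxidative metabolism, and working chamber muscle switches on natriuretic peptide genes.

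The 6 libraries compared held 5436613 and 10031034 counts over gated cells in Isl1Cre E8.25, 6972500 and 10448168 in Isl1Cre E8.75, and 19469477 and 12076462 in Nkx2-5Cre E8.25. No cell name was shared between libraries. The 2 Isl1Cre E8.25 libraries carried Xist, which female cells make from the inactive X chromosome, at 47.2 and 78.6 CPM, while Xist was at 0.255 and 0.197 CPM in Isl1Cre E8.75 and 33.96 and 66.9 CPM in Nkx2-5Cre E8.25. The Y-linked gene Eif2s3y was at 0 in both Isl1Cre E8.25 libraries and at 47.2 and 55.7 CPM in Isl1Cre E8.75. Sex and stage therefore cannot be told apart in the comparison with Isl1Cre E8.75, whereas both E8.25 groups had the female pattern.

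The gate took 64.9% of Isl1Cre E8.25 replicate 1 (exact Clopper-Pearson 95% interval, counting error only: 54.4% to 74.5%) and 61.7% of replicate 2 (51.1% to 71.5%). It took 87.1% and 90.1% of the 2 Isl1Cre E8.75 libraries. It took 87.2% and 80.6% of the 2 Nkx2-5Cre E8.25 libraries. These shares follow from the rule and are a description. The Isl1Cre E8.25 cells that missed the gate were not cells without Tnnt2: none of the 69 had 0 CPM, their medians were 720 and 885 CPM, and the highest lay at 1875 and 1993 CPM, just outside. The lowest members lay just inside, at 2080 and 2296 CPM.

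**Figure D1:**
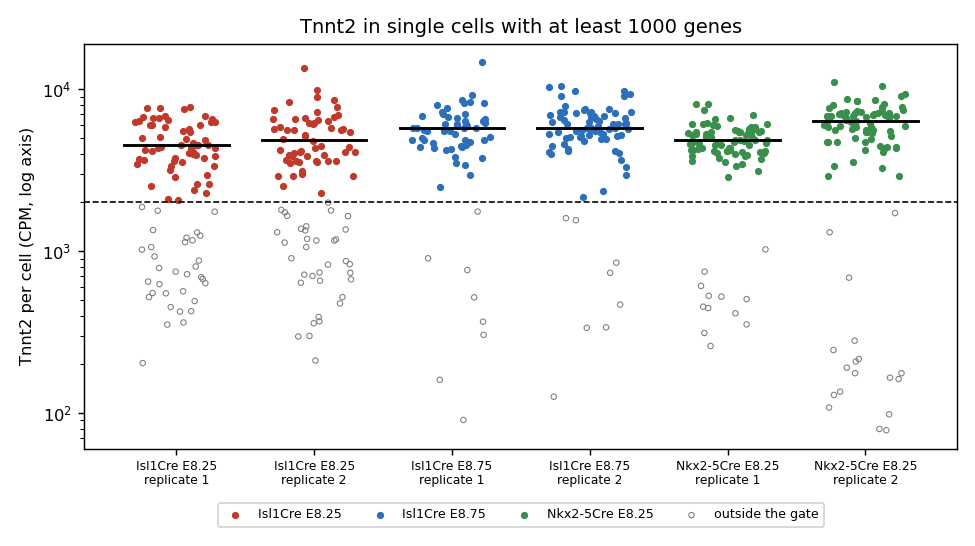
Tnnt2 per cell in CPM on a log axis, for every cell with at least 1000 genes in the 6 libraries. Filled points are gated cells, open points are cells outside the gate, the dashed line is the gate at 2000 CPM and the black bars are medians of gated cells, which were 4497 and 4840 CPM in Isl1Cre E8.25, 5733 and 5778 CPM in Isl1Cre E8.75, and 4850 and 6410 CPM in Nkx2-5Cre E8.25.

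The gate did not make Tnnt2 equal. Tnnt2 had 4739 and 5234 CPM in Isl1Cre E8.25 cells, against 5852 and 6027 CPM in Isl1Cre E8.75 cells and 4944 and 6286 CPM in Nkx2-5Cre E8.25 cells as means over gated cells. Both Isl1Cre E8.25 libraries lay below both Isl1Cre E8.75 libraries, and their range overlapped that of the Nkx2-5Cre E8.25 libraries. For that reason results are also given for 3 Tnnt2 bins averaged with equal weight, called Tnnt2-matched below. The bins ran from 3000 to 4500, 4500 to 6750 and 6750 to 10125 CPM. Fewer cells entered the matched fit, so a call that ended there need not mean a smaller difference. In Isl1Cre E8.25 the 3 bins held 22, 24 and 6 cells of replicate 1 and 22, 21 and 8 cells of replicate 2. The highest bin held only 4 cells of Nkx2-5Cre E8.25 replicate 1 and had the same weight as the others. Cells from 2000 to 3000 CPM, 9 and 6 in Isl1Cre E8.25, were left out, as were cells above 10125 CPM.

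The members fitted the label of heart-muscle cells beyond the gate gene. Myl7, the regulatory light chain of early cardiac myosin, averaged 9532 and 8791 CPM in gated Isl1Cre E8.25 cells, against 1818 and 2616 CPM in the cells of the same libraries outside the gate. Myl4, the embryonic and atrial essential light chain, averaged 5809.8 and 6076 CPM and Actc1, cardiac alpha-actin, 6375 and 4858 CPM in gated cells. Markers of endoderm, endothelium and blood were low but not absent. Of 18 endoderm markers, the summed level was 262 and 124 CPM in Isl1Cre E8.25, against 31.3 and 36.2 CPM in Isl1Cre E8.75 and 59.3 and 56.8 CPM in Nkx2-5Cre E8.25, and 2 of the 18 were at 0 in both Isl1Cre E8.25 libraries. Of 23 endothelial markers the sum was 393 and 222 CPM, against 264 and 370.4 CPM in Isl1Cre E8.75 and 196 and 172 CPM in Nkx2-5Cre E8.25, with none at 0. Of 12 blood markers the sum was 14.6 and 0.976 CPM, against 3.99 and 5.73 CPM in Isl1Cre E8.75 and 7.39 and 5.74 CPM in Nkx2-5Cre E8.25, with 7 at 0 in both Isl1Cre E8.25 libraries. In Isl1Cre E8.25, 18 ectoderm and neural markers summed to 48.05 and 76.4 CPM, and 17 mesenchyme and proepicardium markers to 163 and 149 CPM. Of 19 epithelial genes, the keratin genes Krt8 and Krt18 were not low. The 19 summed to 2120 and 2066 CPM in Isl1Cre E8.25, against 1264 and 1093 CPM in Isl1Cre E8.75 and 1078 and 923 CPM in Nkx2-5Cre E8.25. Most of the Isl1Cre E8.25 sum came from Krt8, at 1397 and 1345 CPM, and Krt18, at 515 and 502 CPM. Only 6 of the 19 were high enough to be tested, so the sum does not describe epithelial genes in general. Cells in which 15 defining markers of other types summed above 300 CPM numbered 12 of the 119 Isl1Cre E8.25 cells, 8 of the 127 Isl1Cre E8.75 cells and 5 of the 157 Nkx2-5Cre E8.25 cells. In Nkx2-5Cre E8.75, which enters the comparison of stage differences between lineages, such cells numbered 33 of 170.

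Compared with gated Isl1Cre E8.75 cells, gated Isl1Cre E8.25 cells had less RNA for several troponin and myosin subunits, early ones such as Myl7 included. They also had less RNA for the calcium store genes Trdn and Hrc, for chamber peptides and for muscle isoforms of energy enzymes. More RNA was found for the keratin genes Krt8 and Krt18 and for Rab33b and Dusp9. Of 10227 genes tested, 294 were lower (2.87%) and 205 higher (2.00%) in Isl1Cre E8.25 at a limma Benjamini-Hochberg adjusted p under 0.05. Compared with Nkx2-5Cre E8.25, at the same stage, 139 genes were lower (1.36%) and 102 higher (0.997%). Among Tnnt2-matched cells 192 and 95 genes passed. Without Isl1Cre E8.25 replicate 1 the counts were 164 and 77, and without its replicate 2 they were 254 and 119. Without Isl1Cre E8.75 replicate 1 or 2 the first count was 268 or 248, and without Nkx2-5Cre E8.25 replicate 1 the second was 138. The 2 comparisons share the Isl1Cre E8.25 libraries, so the values are given side by side and no overlap is drawn from them. Log2 differences are Isl1Cre E8.25 minus the other group, on the scale log2(mean CPM over gated cells + 1), with their standard errors, and this scale understates changes of low genes. Where 2 differences follow each other for a gene, the first is against Isl1Cre E8.75 and the second against Nkx2-5Cre E8.25.

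Among the thick filament genes, the ventricular light chain genes Myl2 and Myl3 were lower in both comparisons. Myl2 had 1299 and 1714 CPM in Isl1Cre E8.25 cells, against 3679.8 and 3481 CPM in Isl1Cre E8.75 cells and 3056 and 2670.3 CPM in Nkx2-5Cre E8.25 cells. Myl2 encodes the ventricular regulatory light chain, and both Isl1Cre E8.25 libraries lay below all 4 libraries of the other groups. The log2 difference of Myl2 was -1.28 ± 0.12 (limma adjusted p = 1.6e-05) against Isl1Cre E8.75, and -0.95 ± 0.12 (limma adjusted p = 0.0004) against Nkx2-5Cre E8.25. Among Tnnt2-matched cells it was -0.97 (adjusted p = 0.0077) and -0.83 (adjusted p = 0.038). Myl3 had 1647 and 1986 CPM in Isl1Cre E8.25 cells, against 2917 and 3163 CPM in Isl1Cre E8.75 cells and 3295 and 3234 CPM in Nkx2-5Cre E8.25 cells. Myl3 is the ventricular essential light chain, and its groups did not overlap either. Its difference was -0.77 ± 0.10 (limma adjusted p = 0.00018) against Isl1Cre E8.75 and -0.87 ± 0.10 (limma adjusted p = 0.00014) against Nkx2-5Cre E8.25, and in Tnnt2-matched cells -0.49 (adjusted p = 0.068) and -0.65 (adjusted p = 0.02), so only the second stayed under the threshold.

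Myl1, an essential light chain known from embryonic and fast skeletal muscle, passed the test against Nkx2-5Cre E8.25 and not against Isl1Cre E8.75. Myl1 had 439 and 384 CPM in Isl1Cre E8.25 cells, against 458 and 531 CPM in Isl1Cre E8.75 cells and 1024 and 797 CPM in Nkx2-5Cre E8.25 cells. The Isl1Cre E8.25 libraries lay below both Nkx2-5Cre E8.25 libraries and just below both Isl1Cre E8.75 libraries. The log2 difference was -0.28 ± 0.14 (limma adjusted p = 0.27) against Isl1Cre E8.75 and -1.15 ± 0.14 (limma adjusted p = 0.00024) against Nkx2-5Cre E8.25. Of the heavy chain genes, only Myh7 passed, and only against Isl1Cre E8.75. Myh6, the alpha heavy chain, differed by -0.31 ± 0.13 (limma adjusted p = 0.20) and by 0.08 ± 0.13 (limma adjusted p = 0.86) in the same order, and Myh7, the beta heavy chain, by -0.73 ± 0.16 (limma adjusted p = 0.014) and by -0.45 ± 0.16 (limma adjusted p = 0.19). The Myh7 call held in Tnnt2-matched cells (-0.68, adjusted p = 0.018) and ended without Isl1Cre E8.25 replicate 1 or without either Isl1Cre E8.75 library. Of 11 thick filament genes tested, out of 13 listed, 5 were lower and none higher against Isl1Cre E8.75, with a median of -0.50 beside 0.008 over all genes, and 4 were lower and none higher against Nkx2-5Cre E8.25, with a median of -0.67 beside 0.018. Among Tnnt2-matched cells 2 and 4 were lower. The early light chain genes were among those lower before matching. Myl7 passed only against Isl1Cre E8.75 (-0.50, limma adjusted p = 0.0011), and Tnnt2 matching ended the call (-0.36, adjusted p = 0.12). Myl4 differed by -0.44 (limma adjusted p = 0.015) and -0.67 (limma adjusted p = 0.0011). In Tnnt2-matched cells Myl4 gave -0.31 (adjusted p = 0.20) and -0.64 (adjusted p = 0.0048).

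The thin filament held the clearest isoform difference, in troponin I. Tnni3 had 189.7 and 156 CPM in Isl1Cre E8.25 cells, against 477 and 537 CPM in Isl1Cre E8.75 cells and 570.0 and 483 CPM in Nkx2-5Cre E8.25 cells. Tnni3 is the cardiac troponin I of the mature heart, and the lowest of the 4 other libraries was above both Isl1Cre E8.25 libraries. Its log2 difference was -1.57 ± 0.16 (limma adjusted p = 1.6e-05) against Isl1Cre E8.75 and -1.61 ± 0.16 (limma adjusted p = 1.4e-05) against Nkx2-5Cre E8.25. It was called in all 22 alternatives of each comparison, and Tnnt2-matched cells gave -1.22 (adjusted p = 0.0007) and -1.26 (adjusted p = 0.0013). Tnni1, the slow skeletal troponin I that embryonic heart muscle uses first, was lower too, but by less. Tnni1 had 1745 and 1529 CPM in Isl1Cre E8.25 cells, against 2634 and 2385 CPM in Isl1Cre E8.75 cells and 2891 and 2699 CPM in Nkx2-5Cre E8.25 cells. Those Tnni1 groups did not overlap, and the log2 differences were -0.64 ± 0.12 (limma adjusted p = 0.0036) against Isl1Cre E8.75 and -0.79 ± 0.12 (limma adjusted p = 0.001) against Nkx2-5Cre E8.25. In Tnnt2-matched cells they were -0.52 (adjusted p = 0.083) and -0.71 (adjusted p = 0.021).

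The actins differed among themselves. Acta1 had 856 and 864 CPM in Isl1Cre E8.25 cells, against 1734 and 1746 CPM in Isl1Cre E8.75 cells and 1736 and 1371 CPM in Nkx2-5Cre E8.25 cells. Acta1, skeletal alpha-actin, is also made by embryonic heart muscle, and the Isl1Cre E8.25 libraries lay below the other 4. Its difference was -1.04 ± 0.13 (limma adjusted p = 0.00011) and -0.86 ± 0.13 (limma adjusted p = 0.0011), and -0.82 (adjusted p = 0.029) and -0.80 (adjusted p = 0.048) in Tnnt2-matched cells. Acta2 had 3152 and 3260.1 CPM in Isl1Cre E8.25 cells, against 4955 and 4715 CPM in Isl1Cre E8.75 cells and 4926 and 4933 CPM in Nkx2-5Cre E8.25 cells. Acta2 is smooth muscle alpha-actin, an early actin of cardiomyocytes, and its groups did not overlap. Its difference was -0.61 ± 0.09 (limma adjusted p = 0.001) against Isl1Cre E8.75 and -0.63 ± 0.09 (limma adjusted p = 0.0011) against Nkx2-5Cre E8.25. Tnnt2 matching ended the first call (-0.44, adjusted p = 0.053) and not the second (-0.53, adjusted p = 0.026). Actc1, the main cardiac actin, did not pass against Isl1Cre E8.75 (-0.13 ± 0.14, limma adjusted p = 0.65) and was lower against Nkx2-5Cre E8.25 (-0.55 ± 0.14, limma adjusted p = 0.043), a call that Tnnt2 matching ended (-0.44, adjusted p = 0.34). Over the thin filament list, 9 of 19 genes were lower and none higher in each comparison, with medians of -0.41 and -0.54. In Tnnt2-matched cells 4 and 5 of these genes were lower. Of 27 genes of the Z-disc, titin and assembly factors, 7 were lower against Isl1Cre E8.75 and 3 against Nkx2-5Cre E8.25, and in Tnnt2-matched cells 1 and 0 were. Ttn itself, the giant spring of the sarcomere, did not pass. Ttn had 1884 and 2562 CPM in Isl1Cre E8.25 cells, against 3666 and 3554 CPM in Isl1Cre E8.75 cells and 1806 and 3718 CPM in Nkx2-5Cre E8.25 cells. The Isl1Cre E8.25 libraries lay below both Isl1Cre E8.75 libraries and inside the wide range of Nkx2-5Cre E8.25, with differences of -0.74 ± 0.22 (limma adjusted p = 0.058) and -0.25 ± 0.22 (limma adjusted p = 0.67).

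**Figure D2:**
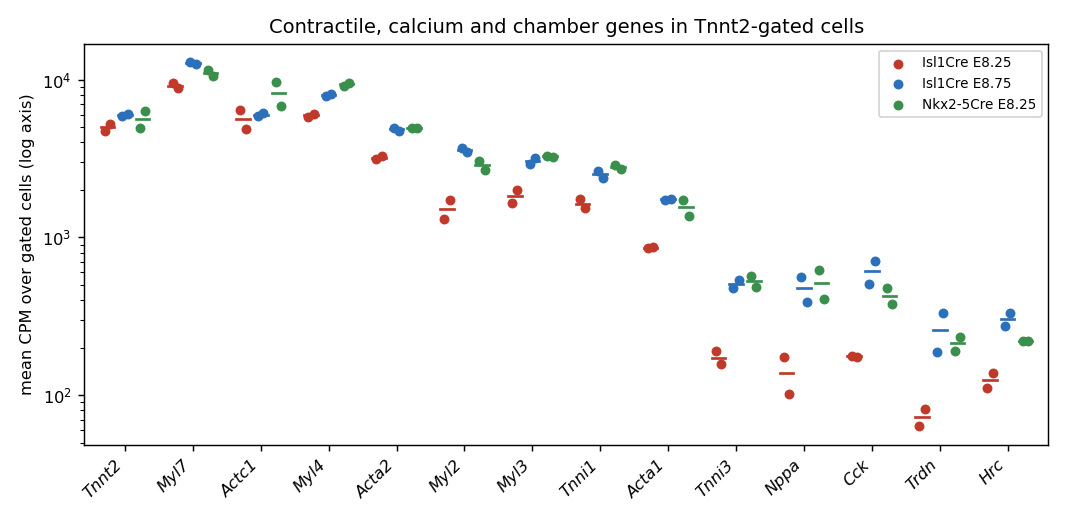
Mean CPM over gated cells on a log axis for 14 contractile, calcium and chamber genes, 1 point per library and a bar at each group mean. For Tnni3 the Isl1Cre E8.25 points sit at 189.7 and 156 CPM, below all 4 others, whereas for Tnnt2 they overlap with Nkx2-5Cre E8.25.

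Several calcium handling genes were lower. Trdn had 63.4 and 81.2 CPM in Isl1Cre E8.25 cells, against 188 and 331 CPM in Isl1Cre E8.75 cells and 191 and 235 CPM in Nkx2-5Cre E8.25 cells. Triadin, the product of Trdn, holds calsequestrin at the release channel of the sarcoplasmic reticulum, and every Isl1Cre E8.25 value was below every other. The log2 difference of Trdn was -1.81 ± 0.24 (limma adjusted p = 0.0002) against Isl1Cre E8.75 and -1.56 ± 0.24 (limma adjusted p = 0.0013) against Nkx2-5Cre E8.25, and -1.08 (adjusted p = 0.011) and -1.18 (adjusted p = 0.0088) in Tnnt2-matched cells. Hrc had 111 and 138 CPM in Isl1Cre E8.25 cells, against 275 and 330.4 CPM in Isl1Cre E8.75 cells and 221 and 219.8 CPM in Nkx2-5Cre E8.25 cells. Hrc binds calcium inside the same store, and its groups did not overlap. It differed by -1.30 ± 0.17 (limma adjusted p = 0.0002) against Isl1Cre E8.75 and by -0.84 ± 0.17 (limma adjusted p = 0.013) against Nkx2-5Cre E8.25, and the second call ended in Tnnt2-matched cells (-0.82, adjusted p = 0.058), in the count tests and without replicate 1 of either E8.25 group. S100a1, a calcium sensor that acts on the release channel and the calcium pump, was lower by -1.52 ± 0.25 (limma adjusted p = 0.0016) and by -1.03 ± 0.25 (limma adjusted p = 0.034), the second call ending without any 1 of the 4 E8.25 libraries. Casq1, a calsequestrin of the store, did not pass against Isl1Cre E8.75 (-0.20 ± 0.27, limma adjusted p = 0.73) and was lower against Nkx2-5Cre E8.25 (-1.06 ± 0.27, limma adjusted p = 0.045), a call that Tnnt2 matching ended (-0.83, adjusted p = 0.39).

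The sodium-calcium exchanger gene Slc8a1 was lower by -0.75 ± 0.17 (limma adjusted p = 0.016) against Isl1Cre E8.75 and by -0.71 ± 0.17 (limma adjusted p = 0.032) against Nkx2-5Cre E8.25, where Tnnt2 matching ended the call (-0.44, adjusted p = 0.41). Both Slc8a1 calls also ended without Isl1Cre E8.25 replicate 1. The release channel and the pump did not pass the test. Ryr2 had 149.6 and 216 CPM in Isl1Cre E8.25 cells, against 229 and 216 CPM in Isl1Cre E8.75 cells and 173 and 221 CPM in Nkx2-5Cre E8.25 cells. Atp2a2 had 352 and 297 CPM in Isl1Cre E8.25 cells, against 345 and 337 CPM in Isl1Cre E8.75 cells and 392.4 and 297 CPM in Nkx2-5Cre E8.25 cells. Ryr2 is the release channel and Atp2a2 the pump of the sarcoplasmic reticulum, and for both the ranges of the 3 groups overlapped. Their log2 differences were -0.33 ± 0.21 (limma adjusted p = 0.40) and -0.14 ± 0.21 (limma adjusted p = 0.83) for Ryr2, and -0.10 ± 0.17 (limma adjusted p = 0.80) and -0.09 ± 0.17 (limma adjusted p = 0.86) for Atp2a2. Pln had 0.162 and 6.18 CPM in Isl1Cre E8.25 cells, against 7.48 and 7.67 CPM in Isl1Cre E8.75 cells and 22.3 and 12.6 CPM in Nkx2-5Cre E8.25 cells. Pln restrains that pump, and its difference was -1.59 ± 0.60 (limma adjusted p = 0.14) against Isl1Cre E8.75 and -2.63 ± 0.60 (limma adjusted p = 0.025) against Nkx2-5Cre E8.25, a call that a pseudocount of 10, edgeR, DESeq2 and leaving out replicate 1 of either E8.25 group each ended. Of 19 calcium genes tested, 4 were lower against Isl1Cre E8.75 and 6 against Nkx2-5Cre E8.25, none was higher, and the medians were -0.22 and -0.30. Over all genes tested, 2.87% and 1.36% were lower. In Tnnt2-matched cells 4 and 3 of the calcium genes were lower, with medians of -0.28 and -0.11. With cells thinned to 10000 counts 3 and 1 were lower.

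Some genes of chamber muscle were lower too. Of 16 chamber and ventricular genes tested, out of 19 listed, 4 were lower and none higher in each comparison, and 12 were not called. Their medians were -0.52 and -0.70. Over all genes tested, 2.87% were lower against Isl1Cre E8.75 and 1.36% against Nkx2-5Cre E8.25. In Tnnt2-matched cells 2 and 3 of the chamber genes were lower. Nppa had 175 and 102 CPM in Isl1Cre E8.25 cells, against 561 and 389 CPM in Isl1Cre E8.75 cells and 617 and 405 CPM in Nkx2-5Cre E8.25 cells. Nppa encodes atrial natriuretic peptide, which marks working chamber muscle, and the highest Isl1Cre E8.25 library was below the lowest of the others. Its log2 difference was -1.82 ± 0.23 (limma adjusted p = 0.00016) against Isl1Cre E8.75 and -1.91 ± 0.23 (limma adjusted p = 0.00022) against Nkx2-5Cre E8.25, and the Tnnt2-matched values were -1.85 (adjusted p = 2.1e-05) and -2.09 (adjusted p = 3.3e-06). Cck had 178 and 175 CPM in Isl1Cre E8.25 cells, against 509 and 707 CPM in Isl1Cre E8.75 cells and 477 and 378 CPM in Nkx2-5Cre E8.25 cells. Cck encodes the peptide cholecystokinin, and its groups did not overlap. Its difference was -1.78 ± 0.18 (limma adjusted p = 1.6e-05) and -1.28 ± 0.18 (limma adjusted p = 0.00078), with -1.47 (adjusted p = 0.00023) and -0.90 (adjusted p = 0.031) in Tnnt2-matched cells. Cited1, a transcriptional co-regulator, was lower by -1.13 ± 0.27 (limma adjusted p = 0.021) and -1.72 ± 0.27 (limma adjusted p = 0.0015), and Tnnt2 matching ended the first call (-0.89, adjusted p = 0.14), as did leaving out either Isl1Cre E8.25 library. Nppb, which encodes brain natriuretic peptide, separated only one pair: Nppb had 88.04 and 116 CPM in Isl1Cre E8.25 cells, against 172 and 80.9 CPM in Isl1Cre E8.75 cells and 326 and 175 CPM in Nkx2-5Cre E8.25 cells. Its log2 difference was -0.25 ± 0.30 (limma adjusted p = 0.70) against Isl1Cre E8.75, where the groups overlapped, and -1.25 ± 0.30 (limma adjusted p = 0.032) against Nkx2-5Cre E8.25, where Tnnt2 matching ended the call (-1.36, adjusted p = 0.058), as did leaving out either Isl1Cre E8.25 library.

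The proximal promoters of 4 genes that were lower in both comparisons are shown because their products belong to different parts of the cell: a chamber peptide, a thin filament regulator, an actin and a second peptide. Each is the 250 bases before the RefSeq start on GRCm38.p6, printed 5′ to 3′ on the gene's strand, with matches in capitals. The motifs searched on both strands were TATAAA, where general transcription factors start assembly, AAGTG, the core letters for factors such as Nkx2-5, AGATAA, for factors such as Gata4, and the CArG box of serum response factor. A CArG box can hold the letters TATAAA, and the other motifs do not contain each other. TATAAA was in 12.4% of 32851 RefSeq windows of this length, AAGTG in 40.7%, AGATAA in 9.99% and the CArG box in 1.47%.
Nppa, chr4:148000472-148000721, strand +: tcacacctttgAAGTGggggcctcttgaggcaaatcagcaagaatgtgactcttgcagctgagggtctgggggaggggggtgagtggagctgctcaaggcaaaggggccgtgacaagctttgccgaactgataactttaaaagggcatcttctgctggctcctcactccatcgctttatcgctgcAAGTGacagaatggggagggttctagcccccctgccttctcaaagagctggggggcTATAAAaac
Tnni3, chr7:4522529-4522778, strand -: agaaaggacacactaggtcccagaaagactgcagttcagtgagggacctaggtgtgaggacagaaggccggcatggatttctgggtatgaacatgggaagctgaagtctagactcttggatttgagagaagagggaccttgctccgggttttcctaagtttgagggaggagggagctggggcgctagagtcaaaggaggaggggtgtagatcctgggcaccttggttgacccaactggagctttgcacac
Acta1, chr8:123894776-123895025, strand -: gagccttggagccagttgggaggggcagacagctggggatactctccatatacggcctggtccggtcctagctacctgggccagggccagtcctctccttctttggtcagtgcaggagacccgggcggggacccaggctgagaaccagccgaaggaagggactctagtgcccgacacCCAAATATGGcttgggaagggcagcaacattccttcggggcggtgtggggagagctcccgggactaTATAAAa
Cck, chr9:121495695-121495944, strand -: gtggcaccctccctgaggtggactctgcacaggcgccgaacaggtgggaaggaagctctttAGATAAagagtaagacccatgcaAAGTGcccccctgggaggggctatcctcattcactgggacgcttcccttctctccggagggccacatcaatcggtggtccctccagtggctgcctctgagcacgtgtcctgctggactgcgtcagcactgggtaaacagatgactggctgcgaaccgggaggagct
The Nppa window held 1 TATAAA 9 bases before the start and 2 AAGTG matches. The Acta1 window held 1 TATAAA 7 bases before the start and 1 CArG box 73 bases before it. The Cck window held 1 AGATAA and 1 AAGTG, and no searched motif was found in the Tnni3 window. These matches describe the letters of the windows and say nothing of which factor was bound.

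Within bins of Tnnt2 the order of the libraries could be followed directly. In the middle bin, Tnni3 averaged 224 and 221 CPM in Isl1Cre E8.25, against 442 and 550.0 CPM in Isl1Cre E8.75 and 628 and 496 CPM in Nkx2-5Cre E8.25. In the highest bin it averaged 302 and 300.44 CPM in Isl1Cre E8.25, against 666 and 536 CPM in Isl1Cre E8.75 and 639 and 493 CPM in Nkx2-5Cre E8.25. The Isl1Cre E8.25 libraries were the lowest 2 in each of the 3 bins for Tnni3. Myl2 in the middle bin averaged 1720 and 2186 CPM in Isl1Cre E8.25, against 3294 and 3614 CPM in Isl1Cre E8.75 and 3248 and 2305 CPM in Nkx2-5Cre E8.25. Nppa in the middle bin averaged 285 and 56.7 CPM in Isl1Cre E8.25, against 775 and 478 CPM in Isl1Cre E8.75 and 491 and 268 CPM in Nkx2-5Cre E8.25, so Isl1Cre E8.25 overlapped with Nkx2-5Cre E8.25 there. Its Isl1Cre E8.25 libraries were below the other 4 in the highest bin, which held 6 and 8 of their cells. That bin held 4 cells of Nkx2-5Cre E8.25 replicate 1.

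**Figure D3:**
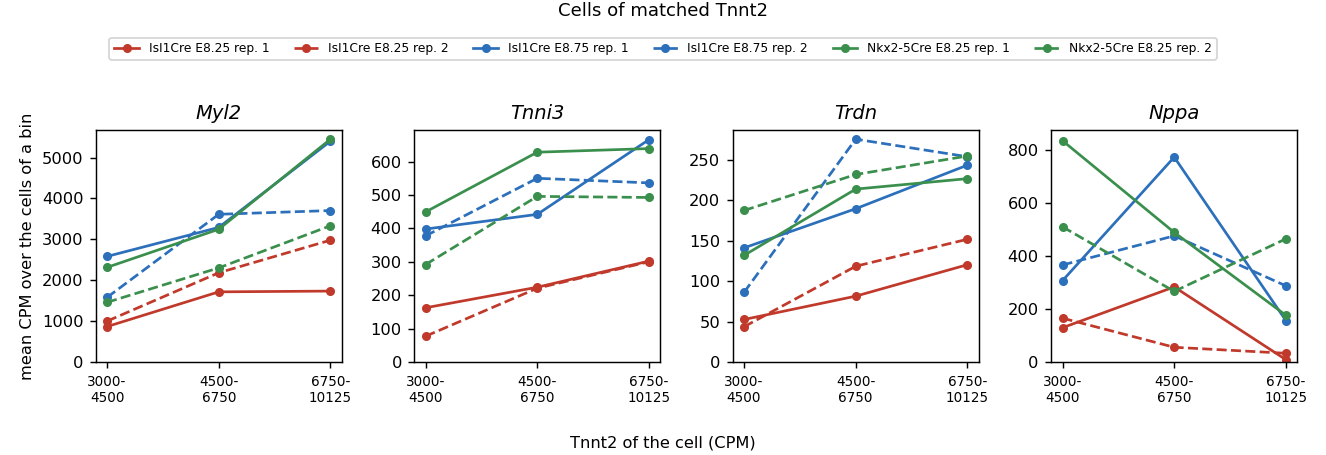
Mean CPM of Myl2, Tnni3, Trdn and Nppa over the cells of 3 Tnnt2 bins, with 1 line per library (solid for replicate 1, dashed for replicate 2). In the middle bin the Isl1Cre E8.25 lines for Tnni3 lie at 224 and 221 CPM, below every other line.

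The members varied widely among themselves. Tnni3 had a median of 83.5 and 83.04 CPM per Isl1Cre E8.25 cell with upper quartiles of 274 and 208 CPM and highest cells of 743 and 946 CPM. The medians were 374 and 334 CPM in Isl1Cre E8.75 cells and 475 and 368 CPM in Nkx2-5Cre E8.25 cells. The upper quartile of Isl1Cre E8.25 cells thus lay below the median cell of every other library. Nppa was concentrated in few cells: its median per Isl1Cre E8.25 cell was 30.2 and 25.05 CPM and its highest cells had 1571 and 1135 CPM. The medians of Nppa were 83.6 and 67.5 CPM in Isl1Cre E8.75 cells and 102 and 34.9 CPM in Nkx2-5Cre E8.25 cells, so the median cells differed less than the means did. After each cell was thinned to 10000 counts, which left 54 and 53 Isl1Cre E8.25 cells, Spearman's rho with Tnnt2 across cells was 0.751 and 0.491 for Acta2, 0.59 and 0.44 for Actc1, and 0.526 and 0.478 for Ttn. For Nppa it was 0.032 and 0.103, and for Dusp9 it was -0.434 and -0.337. These values are across cells of 1 library, which are not independent replicates and share its depth and handling, and since thinned counts share a fixed sum they are given as a description.

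Several energy metabolism genes were lower. Cox6a2 had 142 and 126 CPM in Isl1Cre E8.25 cells, against 391 and 442 CPM in Isl1Cre E8.75 cells and 241 and 190.2 CPM in Nkx2-5Cre E8.25 cells. Cox6a2 is the heart and skeletal muscle form of a cytochrome c oxidase subunit, and its Isl1Cre E8.25 libraries were the lowest 2 of 6. It differed by -1.65 ± 0.17 (limma adjusted p = 1.6e-05) against Isl1Cre E8.75 and by -0.69 ± 0.17 (limma adjusted p = 0.035) against Nkx2-5Cre E8.25, where the call ended without either Isl1Cre E8.25 library and in Tnnt2-matched cells (-0.68, adjusted p = 0.28). Fabp3 had 120.1 and 139 CPM in Isl1Cre E8.25 cells, against 284 and 273 CPM in Isl1Cre E8.75 cells and 289 and 287 CPM in Nkx2-5Cre E8.25 cells. Fabp3 carries fatty acids in heart muscle, and its groups did not overlap. The log2 difference of Fabp3 was -1.12 ± 0.14 (limma adjusted p = 0.00016) and -1.16 ± 0.14 (limma adjusted p = 0.00024), with -0.89 (adjusted p = 0.011) and -1.07 (adjusted p = 0.0042) in Tnnt2-matched cells. Of 16 muscle energy isoforms tested, 7 were lower against Isl1Cre E8.75 and 9 against Nkx2-5Cre E8.25, with medians of -0.64 and -0.67, and 3 in each comparison passed among Tnnt2-matched cells.

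The hexokinases went opposite ways against Isl1Cre E8.75. Hk1 had 44.2 and 38.4 CPM in Isl1Cre E8.25 cells, against 108 and 110.2 CPM in Isl1Cre E8.75 cells and 112 and 108 CPM in Nkx2-5Cre E8.25 cells. Hk2 had 204 and 251 CPM in Isl1Cre E8.25 cells, against 109 and 136 CPM in Isl1Cre E8.75 cells and 214 and 216 CPM in Nkx2-5Cre E8.25 cells. Hk1, the broadly expressed hexokinase, was lowest in the Isl1Cre E8.25 libraries, and Hk2, the inducible form, was above both Isl1Cre E8.75 libraries but overlapped with Nkx2-5Cre E8.25. Hk1 differed by -1.40 ± 0.24 (limma adjusted p = 0.0026) and -1.41 ± 0.24 (limma adjusted p = 0.0032), and Hk2 by 0.87 ± 0.21 (limma adjusted p = 0.024) and 0.06 ± 0.21 (limma adjusted p = 0.93). The Hk2 call ended without either Isl1Cre E8.25 library. Of 76 oxidative phosphorylation genes tested, 13 were lower and none higher against Isl1Cre E8.75, and 15 were lower and 1 higher against Nkx2-5Cre E8.25. Their medians were -0.28 and -0.35. In Tnnt2-matched cells 0 and 1 of them were lower, while the medians were -0.19 and -0.32.

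Other genes were lower in the members. Arl6ip1 had 124 and 143 CPM in Isl1Cre E8.25 cells, against 249.8 and 218 CPM in Isl1Cre E8.75 cells and 404 and 495 CPM in Nkx2-5Cre E8.25 cells. Arl6ip1 encodes a membrane-shaping protein of the endoplasmic reticulum, and its Isl1Cre E8.25 libraries lay below the other 4. It differed by -0.82 ± 0.17 (limma adjusted p = 0.0089) against Isl1Cre E8.75 and by -1.75 ± 0.17 (limma adjusted p = 1.4e-05) against Nkx2-5Cre E8.25, and the first call ended without replicate 1 of either Isl1Cre stage. Pyy had 7.76 and 10.7 CPM in Isl1Cre E8.25 cells, against 181 and 114 CPM in Isl1Cre E8.75 cells and 108 and 64.6 CPM in Nkx2-5Cre E8.25 cells. Pyy encodes peptide YY, its groups did not overlap, and its means rest on few high cells, the highest at 5988 CPM in Isl1Cre E8.75 and 2374 CPM in Nkx2-5Cre E8.25. The log2 difference was -3.86 ± 0.36 (limma adjusted p = 1.2e-05) and -3.07 ± 0.36 (limma adjusted p = 0.00015). Msmo1, an enzyme of cholesterol synthesis, was lower by -1.51 ± 0.26 (limma adjusted p = 0.0026) and -1.60 ± 0.26 (limma adjusted p = 0.0023). Wnt11, a ligand of non-canonical Wnt signalling expressed in the outflow tract, was lower by -1.37 ± 0.26 (limma adjusted p = 0.0054) and -1.14 ± 0.26 (limma adjusted p = 0.025), and the second call ended in Tnnt2-matched cells (-1.19, adjusted p = 0.093), with edgeR and without any 1 of the 4 E8.25 libraries.

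Genes that were higher in the members included 2 keratins. Krt8 had 1397 and 1345 CPM in Isl1Cre E8.25 cells, against 787 and 745 CPM in Isl1Cre E8.75 cells and 725 and 577 CPM in Nkx2-5Cre E8.25 cells. Krt18 had 515 and 502 CPM in Isl1Cre E8.25 cells, against 253 and 244 CPM in Isl1Cre E8.75 cells and 218 and 232 CPM in Nkx2-5Cre E8.25 cells. Krt8 and Krt18 pair into the filaments of simple epithelia, and both Isl1Cre E8.25 libraries were above the other 4 for each. Krt18 differed by 1.01 ± 0.17 (limma adjusted p = 0.0018) against Isl1Cre E8.75 and by 1.16 ± 0.17 (limma adjusted p = 0.00098) against Nkx2-5Cre E8.25. Krt8 differed by 0.82 ± 0.18 (limma adjusted p = 0.012) against Isl1Cre E8.75, where leaving out any 1 of the 4 libraries or Tnnt2 matching (0.75, adjusted p = 0.051) ended the call, and by 1.07 ± 0.18 (limma adjusted p = 0.0024) against Nkx2-5Cre E8.25. The cells of the same Isl1Cre E8.25 libraries outside the gate had more: Krt18 averaged 1476 and 1417 CPM and Krt8 2368 and 2383 CPM there. The part that RNA from those cells had in the difference was not tested.

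Rab33b and Dusp9 were also higher. Rab33b had 1356 and 920.5 CPM in Isl1Cre E8.25 cells, against 341 and 270.3 CPM in Isl1Cre E8.75 cells and 314 and 246 CPM in Nkx2-5Cre E8.25 cells. Rab33b is a Golgi GTPase, and the Isl1Cre E8.25 libraries stood above the other 4. It differed by 1.85 ± 0.19 (limma adjusted p = 2.1e-05) and 1.99 ± 0.19 (limma adjusted p = 1.4e-05), was called in all 22 alternatives of each comparison, and its median in Isl1Cre E8.25 cells, 1153 and 852 CPM, exceeded its upper quartiles of 437 and 369 CPM in Isl1Cre E8.75 and 355 and 269.6 CPM in Nkx2-5Cre E8.25. Dusp9 had 73.8 and 70.2 CPM in Isl1Cre E8.25 cells, against 5.45 and 16.3 CPM in Isl1Cre E8.75 cells and 15.9 and 14.4 CPM in Nkx2-5Cre E8.25 cells. Dusp9 is a phosphatase that switches off ERK kinases, and the groups did not overlap. It differed by 2.77 ± 0.39 (limma adjusted p = 0.00044) against Isl1Cre E8.75 and by 2.16 ± 0.39 (limma adjusted p = 0.0051) against Nkx2-5Cre E8.25, where the Tnnt2-matched value was 1.74 (adjusted p = 0.07) and the call also ended without Isl1Cre E8.25 replicate 1. The median Isl1Cre E8.25 cell had 47.3 and 42.96 CPM of Dusp9, against 0 and 0 CPM in Isl1Cre E8.75 and 4.74 and 0 CPM in Nkx2-5Cre E8.25. Cells outside the gate averaged 1787 and 1406 CPM of Rab33b and 124 and 92.1 CPM of Dusp9 in Isl1Cre E8.25.

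**Figure D4:**
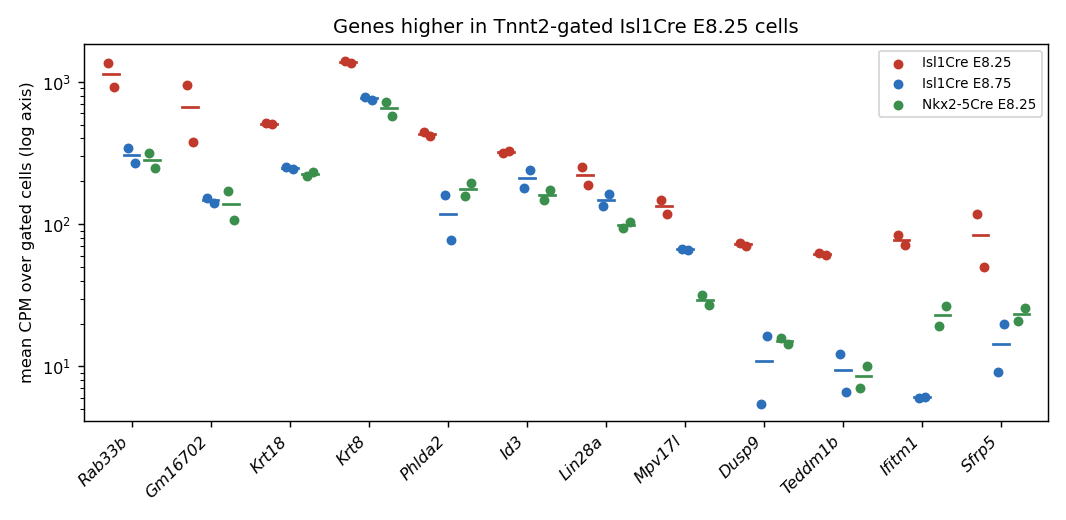
Mean CPM over gated cells on a log axis for 12 genes, 1 point per library and a bar at each group mean. For Rab33b the Isl1Cre E8.25 points at 1356 and 920.5 CPM lie above the other 4, and the 2 Isl1Cre E8.25 points are farthest apart for Gm16702 and Sfrp5.

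Higher genes with little known of their role in the heart included Teddm1b and the predicted gene Gm16702. Teddm1b had 62.3 and 60.48 CPM in Isl1Cre E8.25 cells, against 12.2 and 6.57 CPM in Isl1Cre E8.75 cells and 7.10 and 10.001 CPM in Nkx2-5Cre E8.25 cells. Gm16702 had 956 and 378 CPM in Isl1Cre E8.25 cells, against 153 and 142 CPM in Isl1Cre E8.75 cells and 170.3 and 107 CPM in Nkx2-5Cre E8.25 cells. For both genes the Isl1Cre E8.25 libraries were the highest 2, and for Gm16702 they also lay far apart. Teddm1b differed by 2.62 ± 0.41 (limma adjusted p = 0.001) and 2.71 ± 0.41 (limma adjusted p = 0.0011), and Gm16702 by 2.00 ± 0.31 (limma adjusted p = 0.001) and 2.13 ± 0.31 (limma adjusted p = 0.00098). Mpv17l had 148 and 118 CPM in Isl1Cre E8.25 cells, against 67.3 and 66.2 CPM in Isl1Cre E8.75 cells and 31.6 and 26.96 CPM in Nkx2-5Cre E8.25 cells. Mpv17l, a relative of a mitochondrial inner membrane protein, stood highest in the Isl1Cre E8.25 libraries, next in Isl1Cre E8.75 and lowest in Nkx2-5Cre E8.25. It differed by 0.96 ± 0.27 (limma adjusted p = 0.048), a call that leaving out any of the 4 Isl1Cre libraries or Tnnt2 matching (0.81, adjusted p = 0.26) ended, and by 2.13 ± 0.27 (limma adjusted p = 0.00028), a call that held in all 22 alternatives.

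Some genes known from young mesoderm were higher. Ifitm1 had 84.5 and 71.1 CPM in Isl1Cre E8.25 cells, against 6.03 and 6.12 CPM in Isl1Cre E8.75 cells and 19.4 and 26.6 CPM in Nkx2-5Cre E8.25 cells. Ifitm1 is an interferon-induced membrane protein that nascent mouse mesoderm expresses, and its groups did not overlap. It differed by 3.45 ± 0.42 (limma adjusted p = 0.00011) against Isl1Cre E8.75 and by 1.71 ± 0.42 (limma adjusted p = 0.039) against Nkx2-5Cre E8.25, and the second call ended in Tnnt2-matched cells (1.52, adjusted p = 0.31), without either Isl1Cre E8.25 library and without the cells that carried other-type markers. Its mean outside the gate was 293 and 248 CPM in Isl1Cre E8.25. Sfrp5 had 118 and 49.8 CPM in Isl1Cre E8.25 cells, against 9.14 and 19.8 CPM in Isl1Cre E8.75 cells and 20.9 and 25.6 CPM in Nkx2-5Cre E8.25 cells. Sfrp5 is a secreted Wnt antagonist of cardiac progenitors, and its Isl1Cre E8.25 libraries differed widely, with both above the other 4. It differed by 2.40 ± 0.53 (limma adjusted p = 0.014) against Isl1Cre E8.75, not in Tnnt2-matched cells (1.66, adjusted p = 0.21) or without Isl1Cre E8.25 replicate 1, and by 1.67 ± 0.53 (limma adjusted p = 0.12) against Nkx2-5Cre E8.25.

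Of 11 early mesoderm genes tested, out of 21 listed, 5 were higher and 1 lower against Isl1Cre E8.75, the lower one being Mest, and 3 were higher against Nkx2-5Cre E8.25. In Tnnt2-matched cells 1 was higher and 1 lower against Isl1Cre E8.75, Ifitm1 and Mest, and none was higher and 1 lower against Nkx2-5Cre E8.25. Summed over the 21 genes, the level was 479 and 373 CPM in Isl1Cre E8.25, against 374 and 413 CPM in Isl1Cre E8.75 and 257 and 520.3 CPM in Nkx2-5Cre E8.25, so the sums overlapped. Those 11 passed the filter on low values, so genes high in the members are favoured among them. Lin28a had 252 and 189 CPM in Isl1Cre E8.25 cells, against 134 and 162 CPM in Isl1Cre E8.75 cells and 93.6 and 103 CPM in Nkx2-5Cre E8.25 cells. Lin28a blocks maturation of let-7 microRNAs, and its Isl1Cre E8.25 libraries were the highest 2. It differed by 0.54 ± 0.27 (limma adjusted p = 0.28) against Isl1Cre E8.75 and by 1.13 ± 0.27 (limma adjusted p = 0.035) against Nkx2-5Cre E8.25, which Tnnt2 matching (1.17, adjusted p = 0.078) or leaving out any 1 of the 4 E8.25 libraries ended. Id3 had 317 and 325 CPM in Isl1Cre E8.25 cells, against 179 and 242 CPM in Isl1Cre E8.75 cells and 148 and 173 CPM in Nkx2-5Cre E8.25 cells. Id3 inhibits basic helix-loop-helix factors, and here too the Isl1Cre E8.25 libraries were the highest 2. It differed by 0.60 ± 0.19 (limma adjusted p = 0.069) and 0.99 ± 0.19 (limma adjusted p = 0.0068), the second call ending in Tnnt2-matched cells (0.76, adjusted p = 0.17) and without either Isl1Cre E8.25 library. Phlda2 had 443 and 418 CPM in Isl1Cre E8.25 cells, against 159 and 77.4 CPM in Isl1Cre E8.75 cells and 158 and 193 CPM in Nkx2-5Cre E8.25 cells. Phlda2 is an imprinted growth regulator, and its groups did not overlap, with differences of 1.92 ± 0.28 (limma adjusted p = 0.00049) and 1.28 ± 0.28 (limma adjusted p = 0.018), the second ending in Tnnt2-matched cells (1.01, adjusted p = 0.21) and without either Isl1Cre E8.25 library.

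Some higher genes are best known from endoderm or blood vessel precursors. Spink1 had 145 and 67.2 CPM in Isl1Cre E8.25 cells, against 21.4 and 24.6 CPM in Isl1Cre E8.75 cells and 49.4 and 46.9 CPM in Nkx2-5Cre E8.25 cells. Ttr had 59.8 and 25.8 CPM in Isl1Cre E8.25 cells, against 0 and 0 CPM in Isl1Cre E8.75 cells and 1.15 and 1.49 CPM in Nkx2-5Cre E8.25 cells. Spink1 encodes a protease inhibitor and Ttr the carrier transthyretin, both made by endoderm, and both Isl1Cre E8.25 libraries were the highest 2. Spink1 differed by 2.04 ± 0.34 (limma adjusted p = 0.0017) against Isl1Cre E8.75 and by 1.01 ± 0.34 (limma adjusted p = 0.14) against Nkx2-5Cre E8.25. Outside the gate the same Isl1Cre E8.25 libraries averaged 676 and 539 CPM of Spink1 and 263 and 172 CPM of Ttr. The Spink1 means there lay far above the median cell, which had 49.2 and 65.9 CPM, while the highest cells had 7893 and 4919 CPM. The median gated cell had 66.8 and 48.3 CPM of Spink1, close to the median cell outside the gate. For Rab33b the medians were 1153 and 852 CPM inside the gate and 1664 and 1181.5 CPM outside. The median gated cell had 16.75 and 16.83 CPM of Ttr. Whether free RNA or single cells carried these genes into the members was not tested. Etv2, a factor of endothelial and blood precursors, had 128 and 20.3 CPM in Isl1Cre E8.25, and 1 cell at 6348 CPM was in replicate 1. It had 12.0 and 3.28 CPM in Isl1Cre E8.75 and 4.94 and 2.70 CPM in Nkx2-5Cre E8.25. The median member had 11.8 and 10.1 CPM, against 0 CPM in each library of these groups. Etv2 differed by 2.8 (limma adjusted p = 0.046) and 3.47 (limma adjusted p = 0.023), and by 2.90 (adjusted p = 0.051) and 3.17 (adjusted p = 0.047) in Tnnt2-matched cells. No endothelial marker was called higher in thinned cells or without the cells that carried other-type markers.

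Factors that specify heart muscle were measured as well. Nkx2-5 had 380.0 and 394 CPM in Isl1Cre E8.25 cells, against 377 and 366 CPM in Isl1Cre E8.75 cells and 314 and 306 CPM in Nkx2-5Cre E8.25 cells. Gata4 had 66.8 and 72.3 CPM in Isl1Cre E8.25 cells, against 85.00 and 68.5 CPM in Isl1Cre E8.75 cells and 69.9 and 55.7 CPM in Nkx2-5Cre E8.25 cells. Mef2c had 258 and 268 CPM in Isl1Cre E8.25 cells, against 267 and 251 CPM in Isl1Cre E8.75 cells and 218 and 381 CPM in Nkx2-5Cre E8.25 cells. Nkx2-5, Gata4 and Mef2c act together on cardiac genes, and for Gata4 and Mef2c the ranges overlapped in both comparisons, while Nkx2-5 was slightly above the other 4 libraries. Their log2 differences were 0.04 ± 0.15 (limma adjusted p = 0.93) and 0.31 ± 0.15 (limma adjusted p = 0.39) for Nkx2-5, and -0.15 ± 0.26 (limma adjusted p = 0.80) and 0.14 ± 0.26 (limma adjusted p = 0.87) for Gata4. Of 21 cardiac transcription factors, all tested, none passed in either comparison, with medians of -0.13 and 0.03. With 2.87% of all genes lower and 2.00% higher in the first comparison, and 1.36% and 0.997% in the second, a count of none in 21 is close to the background, and nothing particular to the factors is read from it. The progenitor gene Isl1 itself was low in the members. Isl1 had 3.90 and 8.02 CPM in Isl1Cre E8.25 cells, against 3.75 and 5.19 CPM in Isl1Cre E8.75 cells and 9.67 and 16.9 CPM in Nkx2-5Cre E8.25 cells. Its groups overlapped between the Isl1Cre stages, and the Isl1Cre E8.25 libraries were below both Nkx2-5Cre E8.25 libraries, with differences of 0.28 ± 0.47 (limma adjusted p = 0.80) and -1.07 ± 0.47 (limma adjusted p = 0.31).

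Genes of the cell cycle were compared next. Pcna had 569 and 659 CPM in Isl1Cre E8.25 cells, against 303 and 359 CPM in Isl1Cre E8.75 cells and 538 and 371 CPM in Nkx2-5Cre E8.25 cells. Pcna, the DNA polymerase clamp, was above both Isl1Cre E8.75 libraries and above the Nkx2-5Cre E8.25 libraries, and differed by 0.87 ± 0.17 (limma adjusted p = 0.0057) and 0.44 ± 0.17 (limma adjusted p = 0.22), the first call ending without Isl1Cre E8.25 replicate 2 or Isl1Cre E8.75 replicate 1. Top2a, the topoisomerase of dividing cells, differed by 0.62 ± 0.14 (limma adjusted p = 0.019) and 0.13 ± 0.14 (limma adjusted p = 0.76), and the first call ended in Tnnt2-matched cells (0.55, adjusted p = 0.19). Of 28 S phase genes 2 were higher against Isl1Cre E8.75 and 1 against Nkx2-5Cre E8.25, with medians of 0.37 and 0.24. Positive differences, called or not, were found for 26 and 24 of the 28, beside 5186 and 5266 of all 10227 genes. Of 40 G2 and M phase genes 1 was higher against Isl1Cre E8.75 and 1 was lower against Nkx2-5Cre E8.25, with medians of 0.14 and -0.12. Plk1, a mitotic kinase, was the lower one: Plk1 had 16.2 and 9.23 CPM in Isl1Cre E8.25 cells, against 30.3 and 25.9 CPM in Isl1Cre E8.75 cells and 51.9 and 60.9 CPM in Nkx2-5Cre E8.25 cells. Of 77 ribosomal protein genes 6 were higher and 2 lower against Isl1Cre E8.75, and 2 were higher and 4 lower against Nkx2-5Cre E8.25. Beside the counts of this paragraph, 2.00% of all genes were higher and 2.87% lower against Isl1Cre E8.75. Against Nkx2-5Cre E8.25 the shares were 0.997% and 1.36%. Fos, which rises with stress and dissociation, was lower in the members, by -0.91 ± 0.23 (limma adjusted p = 0.029) and -1.31 ± 0.23 (limma adjusted p = 0.0039), and was the only 1 of 20 dissociation genes tested that passed in either comparison. The first Fos call ended in 11 of 22 alternatives, among them Tnnt2-matched cells (-0.93, adjusted p = 0.084), both count tests and leaving out any 1 of the 4 Isl1Cre libraries, and the second ended with edgeR and without Isl1Cre E8.25 replicate 2.

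**Figure D5:**
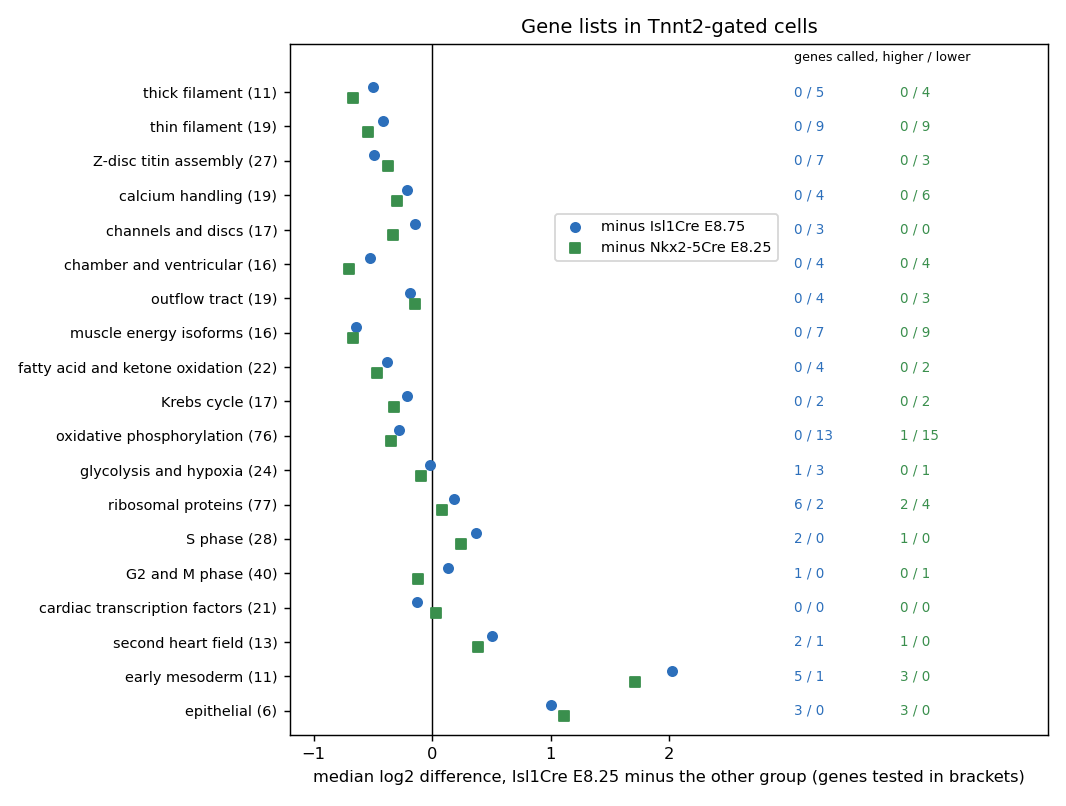
Median log2 difference of 19 gene lists, Isl1Cre E8.25 minus Isl1Cre E8.75 (circles) and minus Nkx2-5Cre E8.25 (squares), with the number of tested genes in brackets and, at the right, how many genes were called higher and lower. Thick and thin filament, chamber and muscle energy medians lie between -0.41 and -0.70, cardiac transcription factors at -0.13 and 0.03.

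The stage difference was then compared between lineages, with Nkx2-5Cre E8.25 minus Nkx2-5Cre E8.75 as the other difference. It differed in 49 of 10227 genes, being lower in Isl1Cre for 32 (0.313%) and higher for 17 (0.166%). That count was 27 in Tnnt2-matched cells, 18 or 26 without replicate 1 or 2 of Isl1Cre E8.25, 14 without Isl1Cre E8.75 replicate 2, and 27 or 15 without replicate 1 or 2 of Nkx2-5Cre E8.75. Among the named contractile genes, Acta1 was called in the most alternatives. Its stage difference was -1.04 in Isl1Cre and 0.36 in Nkx2-5Cre, where E8.25 cells had 1736 and 1371 CPM and E8.75 cells 1251 and 1157 CPM. The interaction of Acta1 was -1.40 ± 0.18 (limma adjusted p = 0.0008), and it remained past the threshold in 20 of 22 alternatives. For Nppa the stage difference was -1.82 in Isl1Cre and 0.25 in Nkx2-5Cre, with an interaction of -2.07 ± 0.33 (limma adjusted p = 0.0093). For Tnni3 it was -1.57 in Isl1Cre and -0.42 in Nkx2-5Cre, with an interaction of -1.14 ± 0.22 (limma adjusted p = 0.026) that 12 alternatives ended. For Dusp9 it was 2.77 in Isl1Cre and -0.93 in Nkx2-5Cre, with an interaction of 3.70 ± 0.55 (limma adjusted p = 0.0051). Eif2s3y was at 0.921 and 0 CPM in Nkx2-5Cre E8.25 and 73.1 and 49.2 CPM in Nkx2-5Cre E8.75, so both lineages had the female pattern at E8.25 and the male pattern at E8.75.

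Some of these values carry a limit of gene annotation. On mm10, Tnni3 overlaps Dnaaf3 on the same strand, Rab33b overlaps a predicted gene on the same strand, and Myl2, Myl3, Nppa, Acta1, Krt8, Gm16702, Teddm1b, Mpv17l, Fabp3 and Cox6a2 overlap genes on the opposite strand. Whether the counting used strand is not stated, so reads of a gene and its partner cannot be told apart.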

How the data were processed

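Single-cell RNA was measured in 15 libraries, of which 11 (E8.25, E8.75 and E9.25) entered the fits. Per the labels' protocols, cells were sorted or only trypsinised and picked by mouth pipette, and 3′ cDNA ends with molecular identifiers were sequenced by a modified Smart-seq2 method. The authors deposited CPM per gene and cell for 23154 genes. CASAVA 1.8, TopHat2 2.0.12, HTSeq and mm10 are listed in the submitters' processing notes, with roles and settings not given in the sources used here.

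From the CPM, whole counts were recovered: 100% of low values (up to 20 steps) were multiples of the cell's step within 0.1 of a step. Intervals cover counting error only. Doublets were not searched for, as each cell was picked by hand. Mean CPM over gated cells per library (pseudocount 1, TMM scaling 0.9724 to 1.021, at least 5 CPM in 2 libraries, 10227 genes) was tested with limma 3.58.1 in R 4.3.3, with Benjamini-Hochberg adjustment over all genes tested, as 6 groups with 5 residual degrees of freedom. The design had allowed for deposited counts. The unit was CPM, so edgeR 4.0.16 and DESeq2 1.42.0 on recovered counts became alternatives. The test recovered changes on simulated data with independent noise, where only genes of higher level were changed. That simulation did not cover low genes or differences between embryos. An exact permutation test of 2 libraries against 2 cannot go below p = 0.333.

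Members, the 37 gene lists and tests were chosen with earlier results of these data known. Named genes (154) were a fixed panel, the 8 largest called differences each way at 50 CPM or more without overlap of the groups, up to 4 called genes per list and comparison, and the 5 largest interactions each way. Libraries of a group differed beyond counting noise (chi-square per degree of freedom 16.6 to 50.5). Sequences were read from RefSeq tables of GRCm38.p6.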

Additional observations from a re-analysis of the deposited data

Results flagged for a closer look

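For 29 named genes the stage difference, E8.25 minus E8.75, differed between Isl1Cre and Nkx2-5Cre gated cells by a limma interaction test at an adjusted p under 0.05. Over all 10227 genes tested, 49 differed. Named genes were chosen in part for large interactions and for calls that rest on the same Isl1Cre E8.25 libraries. The number 29 is therefore a description and no sign that named genes differ more often. The interaction is the Isl1Cre stage difference minus the Nkx2-5Cre stage difference, in log2 units. None of the 29 was called under every alternative, 15 were called in Tnnt2-matched cells and 6 by edgeR. No explanation was tested.

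Among contractile genes it was -1.40 for Acta1, -0.61 for Acta2, -0.93 for Myl1, -1.01 for Myl2, -0.67 for Myl3, -0.77 for Tnni1 and -1.14 for Tnni3. Calcium store genes gave -1.65 for Trdn and -1.41 for Hrc. Chamber genes gave -2.07 for Nppa, -1.34 for Cck and -2.05 for Cited1.

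Other genes with a lower value were Arl6ip1 (-1.31), Fos (-2.02), Msmo1 (-1.99), Plk1 (-2.48), Pyy (-5.32), Tgfbr3 (-3.49) and Tlx1 (-4.05). Tgfbr3, a co-receptor for TGF-beta, had 8.64 and 6.25 CPM in Isl1Cre E8.25, against 35.7 and 144 CPM in Isl1Cre E8.75.

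Higher values were 3.70 for Dusp9, 1.21 for Id3, 1.37 for Krt18, 1.69 for Rab33b, 2.61 for Spink1, 3.40 for Teddm1b and 5.24 for Ttr. The embryonic globin genes gave 8.18 for Hba-x, 8.49 for Hbb-bh1 and 5.58 for Hbb-y. Beside the globin values, in Nkx2-5Cre E8.75, 12 blood markers summed to 405 and 1234 CPM, against 14.6 and 0.976 CPM in Isl1Cre E8.25. Fitted values of genes at 0 in a group depend on the pseudocount of 1 and are no bounds.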

How the results depend on the processing

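Every comparison was recomputed under 22 alternatives. Of the named genes called in the main analysis, 19 of 108 against Isl1Cre E8.75 and 10 of 83 against Nkx2-5Cre E8.25 were called under every one, among them Tnni3 and Rab33b in both comparisons. Against Isl1Cre E8.75, 499 genes differed. The count was 116 with no filter on low genes, 309 with only the compared groups, 201 with E7.75 libraries, 749 at a Tnnt2 gate of 1000 CPM, 192 in Tnnt2-matched cells, 202 with cells thinned to 10000 counts and 330 with edgeR, and 164 to 576 with 1 library left out. Against Nkx2-5Cre E8.25, 241 genes differed. The count was 77 with no filter, 77 with E7.75 libraries, 434 at a gate of 1000 CPM and 110 at 4000 CPM, 95 in Tnnt2-matched cells, 117 thinned and 131 with edgeR, and 77 to 242 with 1 library left out. The stage difference differed between lineages in 49 genes. That count was 29 at a pseudocount of 10, 14 with no filter, 27 with only the compared groups, 12 with E7.75 libraries, 8 at a gate of 4000 CPM, 27 in Tnnt2-matched cells, 15 thinned, 30 without cells carrying other-type markers, 9 with edgeR and 100 with DESeq2, and 14 to 57 with 1 library left out. Where a group was left with 1 library, that library is assumed to vary like the others. The cause of these shifts was not tested, except that fewer libraries or cells entered some of them.

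The share of Isl1Cre E8.25 cells in the gate was 78.2% at 1000 CPM and 41.5% at 4000 CPM, and at 4000 CPM it was 80.1% in Isl1Cre E8.75 and 75.4% in Nkx2-5Cre E8.25. Of the named genes called in the main analysis only Smim3 changed direction, to 0.035 against Isl1Cre E8.75 at a gate of 4000 CPM. Replicate numbers did not pair the libraries (correlation of deviations -0.0192 to 0.133). With the number as a replicate block, 572, 282 and 62 genes passed in the 3 comparisons. Depth limits genes of a few CPM, since the median gated Isl1Cre E8.25 cell held 68291 and 117090 counts, and no call can reach beyond the embryos sampled.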
